A study of Homo sapiens with 6 samples.

Results

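Interferon-stimulated genes and RNA sensors were followed in the human pancreatic cancer cell line Capan-1 after transfection with small interfering RNA (siRNA). The set was a list of 40 gene symbols, chosen with earlier results of these data known. Each gene was read by 1 probe set annotated to that gene alone. This was the set with the highest mean over the 6 arrays, with sets marked _x_at taken only where a gene had no other. Of the 40 genes, 39 had such a probe set, out of 19775 genes with one on the array, and STAT2 is not analysed here. Of the 39, 29 had a mean log2 value above 4 and were tested, and 10 lay at or near background and were not.

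The siGNE group (3 arrays) was given siRNA against GNE, the enzyme that starts sialic acid synthesis, and the control group (3 arrays) was given a control siRNA, labelled allStar. Both groups received the same transfection reagent, were transfected 2 times with 48 h between, had the complex replaced after 7 h, and were collected 72 h later than the second transfection. Arrays were numbered 1 to 3 in each group by their titles, and a control and a siGNE array with 1 number form a pair. Whether arrays within a group stem from different cultures is not given, so a p-value here reflects only how these samples vary, and that variation may be technical. Because both groups were transfected with siRNA, the comparison shows only how the siGNE arrays differ from the allStar arrays. A response shared by both groups cannot be seen in it, and untransfected cells are not analysed here.

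Cells detect foreign RNA in the cytosol through RIG-I (RIGI) and MDA5 (IFIH1) and in endosomes through TLR3. These sensors signal through the adaptors MAVS and TICAM1 and the kinases TBK1 and IKBKE to IRF3 and IRF7, which switch on interferon genes. Secreted interferon binds its receptors, JAK kinases activate the factor ISGF3, which holds STAT2 and IRF9, and ISGF3 binds the interferon-stimulated response element (ISRE) in front of antiviral genes. Longer double-stranded RNA is the classical trigger, and some siRNAs can trigger the same sensors in a way that depends on their sequence.

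GNE itself was lower in all 3 pairs. Its log2 values were 11.12, 11.47 and 10.86 in control arrays 1 to 3 and 8.39, 9.86 and 9.57 in siGNE arrays 1 to 3. The difference was -1.88 (SE 0.29, limma adjusted p 0.0348), which left 27.2% of the control level. Ductal epithelial markers (8 of 8 tested, such as KRT19 and EPCAM) read between 10.31 and 15.45. Leukocyte markers (5 of 6 read, with PTPRC and the plasmacytoid dendritic cell marker LILRA4 among them) lay between 1.76 and 3.28 and endothelial markers (3 of 3) between 2.27 and 2.98, at background. Of 5 fibroblast markers, 4 lay at background, and COL1A1 read 7.47 to 9.22 and was 0.71 higher in siGNE (limma adjusted p 0.0441). Without the pair number as a block, neither GNE nor COL1A1 passed (limma adjusted p 0.131 and 0.512). The mean log2 level of the 5 fibroblast markers was 3.62 to 3.90 in control and 3.77 to 4.01 in siGNE arrays, and its part in the results was not tested.

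The ISRE was looked for first, because many interferon-stimulated genes are known to carry it. It is shown here for members that the results turn on. The word searched was GAAANNGAAA, on both strands (TTTCNNTTTC when it lies on the other strand), in RefSeq promoter windows of 300 bases on GRCh38.p14, from 250 bases before to 50 after each annotated start. Of the 35116 windows in the table, 3.57% held the word, and 4.38% of genes had it in at least 1 window. Of the 30 members matched by symbol, 20 had it (66.7%). The stretches below run 5′ to 3′ in the direction of the gene, all before its start, with the matched words in capitals, which run together where matches overlap. A further IFIT5 match crosses the start and is left unmarked. They lie at chr2:162318685-162318855 (minus strand) for IFIH1, chr15:88638935-88638968 (plus strand) for ISG20, chr1:1013372-1013411 (plus strand) for ISG15, chr12:112938319-112938473 (plus strand) for OAS3, chr10:89414511-89414567 (plus strand) for IFIT5 and chr10:89392495-89392541 (plus strand) for IFIT1. The first 3 genes rose, OAS3 and IFIT5 fell, and IFIT1 is the member next to the threshold.
IFIH1: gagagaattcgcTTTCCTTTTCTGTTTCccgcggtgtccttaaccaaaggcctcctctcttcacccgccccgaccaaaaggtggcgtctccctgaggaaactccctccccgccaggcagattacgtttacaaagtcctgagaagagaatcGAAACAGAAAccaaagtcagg
ISG20: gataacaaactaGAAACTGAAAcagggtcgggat
ISG15: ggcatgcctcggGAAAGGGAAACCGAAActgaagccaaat
OAS3: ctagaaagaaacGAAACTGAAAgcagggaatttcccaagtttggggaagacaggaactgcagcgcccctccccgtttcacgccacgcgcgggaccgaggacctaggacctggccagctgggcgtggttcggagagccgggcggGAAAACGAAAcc
IFIT5: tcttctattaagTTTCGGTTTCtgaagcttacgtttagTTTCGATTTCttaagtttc
IFIT1: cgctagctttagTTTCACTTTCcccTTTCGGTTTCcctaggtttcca

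By direction of change, 3 of the 5 members that rose had the word (IFIH1, ISG15 and ISG20) and IRF9 and OAS1 did not have it in this window. Both members that fell had it. Of the 15 matched members that were tested and did not pass, 10 had it, and of 7 matched members near background, 5 had it, IFI6, IFI27, RSAD2, HERC5 and TLR3. The word was therefore present in front of genes that rose, genes that fell and genes at background. A match is a description of the sequence and not a binding site.

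The members did not move as a group. The test was limma with the pair number as a block and Benjamini-Hochberg adjustment over 22085 probe sets, and a gene passed at an adjusted p under 0.05. Of 29 tested members, 5 rose, 2 fell and 22 did not pass. Over all 10731 tested genes, 4.11% rose and 5.79% fell, together 9.9%. The 7 called members (24.1%) were a larger share than that background, a gap that was not tested. Because the members were chosen with earlier results of these data known, the shares given here only describe this list. In the same fit, 14 members (48.3%) had an unadjusted limma p under 0.05, against 32.5% of all tested genes. The median log2 difference was -0.02 over the members and -0.02 over all tested genes, and the median size without sign was 0.27 against 0.19. The differences ran from -0.94 to 0.71, so 0 members differed 2-fold or more, compared with 212 (1.98%) of all tested genes. All 3 pairs were higher for 9 members and lower for 11, and 9 had pairs of both signs. All siGNE values lay above or below all control values in 8 of 29 members (27.6%, 2 above and 6 below), against 23.3% of all tested genes.

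Without the pair block, limma called 0 of the 29 members, with 7 (24.1%) at an unadjusted p under 0.05, against 16.3% of all tested genes, and adjusted p between 0.126 and 0.978. That fit called 0.028% of all tested genes, so every member called here rests on the pairing. With the block, limma also called 0 members when both arrays of number 1, 2 or 3 were left out. Then 15, 11 and 11 of 29 (51.7%, 37.9% and 37.9%) had an unadjusted p under 0.05. Of all 22085 probe sets, which can be several per gene, 25%, 22.7% and 22.8% did. With background probe sets kept in the fit it called 0 as well. There 15 of 39 members (38.5%) had an unadjusted p under 0.05, against 13.1% of 54613 probe sets. The same-number arrays deviated together from their group means (correlations 0.58, 0.71 and 0.83).

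**Figure D1:**
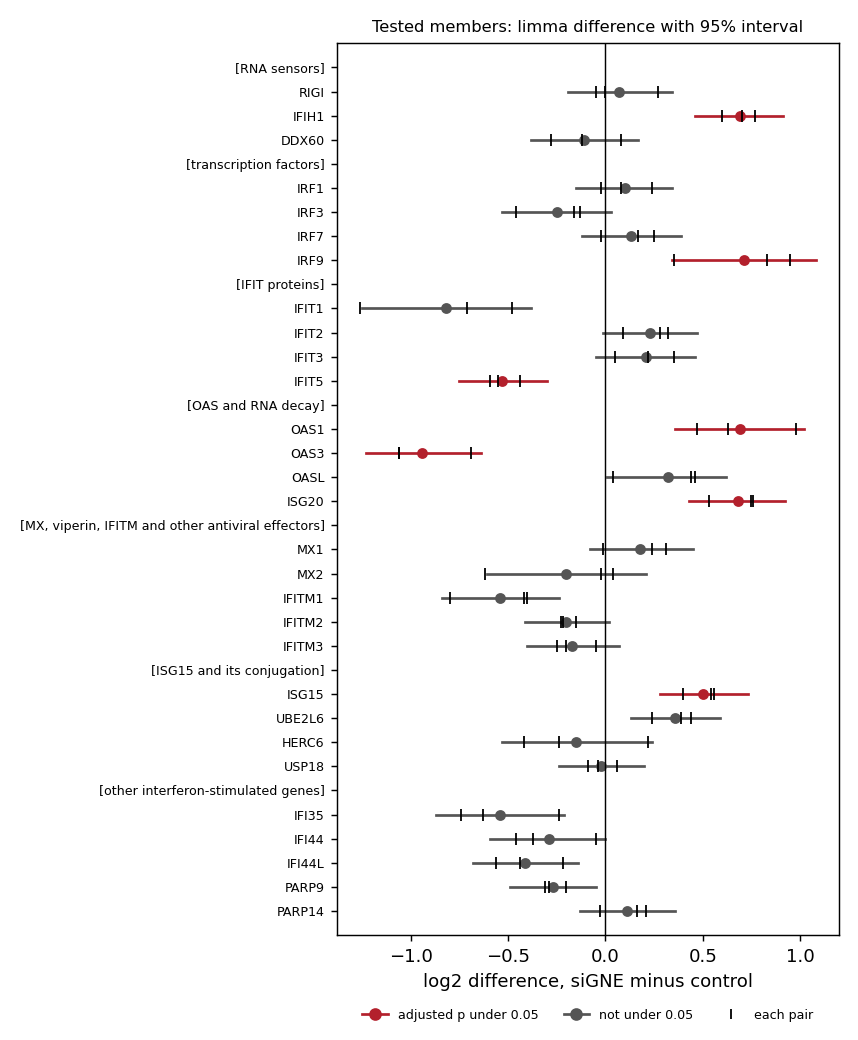
Log2 difference, siGNE minus control, for the 29 tested members, grouped by role. Points are limma estimates with their unadjusted 95% intervals, ticks are the 3 pairs and red marks an adjusted p under 0.05. The 5 red points on the right are IFIH1, IRF9, OAS1, ISG20 and ISG15, and the 2 on the left are IFIT5 and OAS3.

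Among the RNA sensors, IFIH1 rose and RIGI did not pass. IFIH1, which encodes MDA5, the sensor of long double-stranded RNA, read 8.46, 8.05 and 7.41 in control arrays 1 to 3 and 9.22, 8.75 and 8.01 in siGNE arrays 1 to 3. The groups overlapped, because array 3 was lowest in both, but each pair rose by a similar amount (0.77, 0.70 and 0.60). The log2 difference was 0.69 (SE 0.09, limma adjusted p 0.0281), or 1.61-fold. Its other 2 probe sets lay near background (-0.03 and -0.01), and with all 3 averaged the difference was 0.22 and did not pass (limma adjusted p 0.0778). RIGI, the sensor of short double-stranded RNA with a phosphorylated end, read 7.10, 6.43 and 7.03 in control and 7.06, 6.70 and 7.03 in siGNE arrays. Its values overlapped, and the difference was 0.07 with a 95% interval from -0.19 to 0.34 (limma adjusted p 0.665). DDX60, a helicase of the same antiviral program, differed by -0.11 (95% interval -0.38 to 0.17). DHX58 (LGP2), the remaining RIG-I-like helicase, lay between 1.92 and 1.95 in all 6 arrays. The endosomal sensor TLR3 read 3.73, 3.36 and 3.58 in control and 4.48, 3.73 and 2.81 in siGNE arrays, too low to test.

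Of the transcription factors, IRF9 rose. IRF9 is the DNA-binding part of ISGF3, and it read 7.61, 7.76 and 7.83 in control arrays and 8.55, 8.59 and 8.18 in siGNE arrays. The groups did not overlap, and pair 3 had the smallest rise, 0.35 against 0.95 and 0.83. The log2 difference was 0.71 (SE 0.14, limma adjusted p 0.0496), or 1.63-fold, and with robust variances the limma adjusted p was 0.0533, which did not pass. IRF3 and IRF7, which act downstream of the sensors, differed by -0.25 (95% interval -0.53 to 0.03) and 0.13 (-0.12 to 0.39). IRF1, an early interferon-induced factor, differed by 0.10 (-0.15 to 0.34). None of these 3 passed.

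The OAS enzymes make the messenger 2′-5′ oligoadenylate on sensing double-stranded RNA, which activates the nuclease RNase L. The 2 of them that passed moved in opposite directions. OAS1 read 8.09, 8.73 and 8.42 in control arrays and 9.08, 9.20 and 9.05 in siGNE arrays. All siGNE values lay above all control values, with a log2 difference of 0.69 (SE 0.13, limma adjusted p 0.0431), or 1.62-fold. Its other tested probe set gave 0.47 and did not pass (limma adjusted p 0.0584). OAS3, the neighbouring gene on chromosome 12, read 9.82, 9.71 and 9.97 in control arrays and 8.76, 8.65 and 9.27 in siGNE arrays. All siGNE values lay below all control values, with a log2 difference of -0.94 (SE 0.11, limma adjusted p 0.0281), which left 52.2% of the control level. The other OAS3 probe set lay near background (-0.02), and with both averaged the difference was -0.48 and still passed (limma adjusted p 0.0284). OAS2, next to OAS3 on the same chromosome, lay between 2.35 and 2.42 and was not tested.

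OASL, a relative of the OAS enzymes that works with RIG-I, read 6.05, 6.34 and 6.09 in control and 6.10, 6.79 and 6.53 in siGNE arrays, and its difference of 0.32 did not pass (limma adjusted p 0.152). ISG20, an exonuclease that degrades RNA, rose. It read 8.13, 7.49 and 7.00 in control arrays and 8.88, 8.02 and 7.76 in siGNE arrays. The groups overlapped, while the pairs rose by 0.75, 0.53 and 0.76, and the log2 difference was 0.68 (SE 0.09, limma adjusted p 0.0302). A further ISG20 probe set gave 0.66 (limma adjusted p 0.0381).

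The IFIT proteins bind foreign RNA at its capped or phosphorylated end, and of their 4 genes IFIT5 passed and fell. It read 8.44, 8.18 and 8.40 in control arrays and 7.85, 7.63 and 7.96 in siGNE arrays, which did not overlap. The log2 difference was -0.53 (SE 0.09, limma adjusted p 0.0371), which left 69.4% of the control level, and a dimmer probe set of IFIT5 gave -0.27 and did not pass (limma adjusted p 0.223). IFIT1, among the genes most strongly induced by interferon, read 7.65, 7.65 and 7.35 in control arrays and 6.40, 7.17 and 6.64 in siGNE arrays. All siGNE values were below all control values, but the pairs differed in size (-1.26, -0.48 and -0.71). Its log2 difference of -0.82 (SE 0.17) just missed the threshold (limma adjusted p 0.0513). It passed in 7 of the alternatives run, counting the looser threshold of 0.1, for example at 0.0382 after quantile normalization. It did not pass without the block, without the filter, with values under 4 set to 4, with robust variances or with any pair left out. IFIT2 and IFIT3, which lie in the same cluster on chromosome 10, differed by 0.23 (95% interval -0.01 to 0.47) and 0.21 (-0.05 to 0.46) and did not pass. Second probe sets of IFIT2 and IFIT3 gave 0.01 and -0.01.

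**Figure D2:**
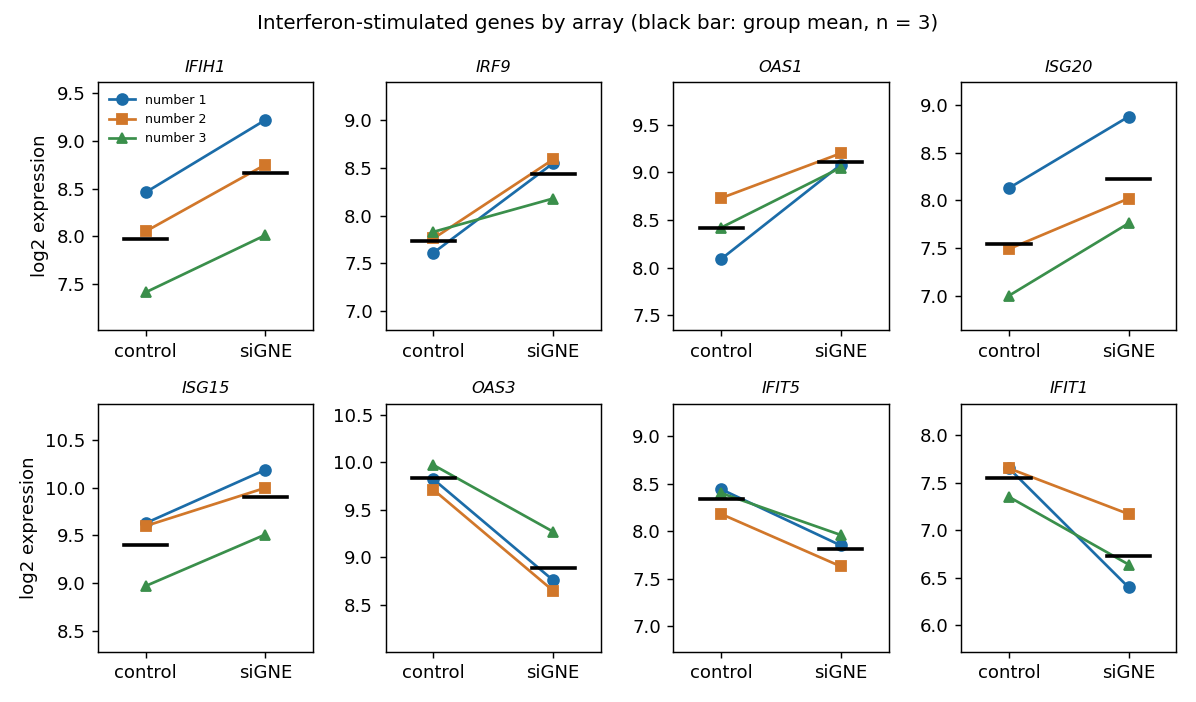
Log2 expression in each array for the 7 members that passed and IFIT1, which did not. Lines join the control and siGNE arrays of 1 number, black bars are group means, and every panel spans the same log2 range. The lines rise in all 3 pairs for IFIH1, IRF9, OAS1, ISG20 and ISG15 and fall in all 3 for OAS3, IFIT5 and IFIT1, while array 3 is lowest in both groups for IFIH1, ISG20 and ISG15.

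ISG15 is a ubiquitin-like protein that interferon induces, and it is attached to other proteins by UBE2L6 and HERC5 and removed by USP18. ISG15 rose, from 9.63, 9.60 and 8.97 in control arrays to 10.19, 10.00 and 9.51 in siGNE arrays. The groups overlapped, again with array 3 lowest in both, and the pairs rose by 0.56, 0.40 and 0.54. The log2 difference was 0.50 (SE 0.09, limma adjusted p 0.0408), or 1.42-fold. The conjugating enzyme UBE2L6 read 9.96, 9.74 and 9.28 in control and 10.34, 10.19 and 9.52 in siGNE arrays and did not pass (0.36, limma adjusted p 0.0714). The protease USP18, which also restrains interferon receptor signalling, differed by -0.02 (95% interval -0.24 to 0.20). The ligase HERC5 lay between 2.32 and 2.43 in all arrays, and its relative HERC6 differed by -0.15 (-0.53 to 0.24).

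None of the 5 tested members of the group with MX, viperin and IFITM proteins passed in limma. Against 32.5% of all tested genes, 1 of the 5 (20%) had an unadjusted p under 0.05. That was IFITM1, a membrane protein that blocks viral entry, which read 9.86, 10.27 and 9.99 in control and 9.43, 9.87 and 9.18 in siGNE arrays (difference -0.54, limma adjusted p 0.0543). Its groups overlapped only where siGNE array 2 reached control array 1. Its relatives IFITM2 and IFITM3 differed by -0.20 (95% interval -0.41 to 0.02) and -0.17 (-0.40 to 0.07), on probe sets prone to cross-hybridisation, so their separate values are uncertain. The GTPases MX1 and MX2 differed by 0.18 (-0.08 to 0.45) and -0.20 (-0.61 to 0.21). RSAD2, which encodes viperin, TRIM22 and the nucleic acid sensor IFI16 lay between 2.26 and 2.96 and were not tested.

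The remaining interferon-stimulated genes gave 0 calls among 5 tested, with 3 (60%) at an unadjusted p under 0.05 in limma, all 3 with negative differences. Over all tested genes, 9.9% passed and 32.5% had an unadjusted p under 0.05. IFI35 read 9.02, 8.98 and 8.89 in control and 8.38, 8.23 and 8.65 in siGNE arrays, which did not overlap (difference -0.54, limma adjusted p 0.0646). IFI44L read 6.89, 6.67 and 5.53 in control and 6.45, 6.45 and 4.97 in siGNE arrays (-0.41, limma adjusted p 0.0742). In IFI44L the arrays of number 3 stood apart from the others in both groups by more than the siGNE difference. PARP9 read 8.24, 8.42 and 7.96 in control and 8.04, 8.10 and 7.67 in siGNE arrays (-0.27, limma adjusted p 0.108). A second PARP9 probe set gave -0.01, and with both averaged the difference was -0.14 (limma adjusted p 0.382). IFI44 and PARP14 differed by -0.29 (95% interval -0.59 to 0.00) and 0.11 (-0.13 to 0.36). IFI6, IFI27 and XAF1, which interferon induces in many epithelial cells, lay between 2.19 and 2.91 in all 6 arrays. A fall or a small rise in them could not be measured, and none rose out of background in a siGNE array.

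Spread between the numbered pairs was as large as the siGNE difference for most members. In 20 of 29 members (69%) the range of the 3 pair means was larger than the size of the siGNE difference, close to the 71.1% of all tested genes. The median range was 0.44 in the members and 0.35 in all tested genes, and the largest were in IFI44L (1.42), IFIH1 (1.13) and ISG20 (1.13). Array 3 was lowest in both groups in 14 members (48.3%) and in 42.9% of all tested genes. As a sign of RNA quality, the 3′ minus 5′ log2 difference of the ACTB control probe sets was 1.08, 1.44 and 0.53 in control arrays 1 to 3 and 1.48, 1.25 and 0.49 in siGNE arrays 1 to 3, and that of GAPDH ran from -0.07 to 0.10. The ACTB value was lowest in the arrays of number 3, and its part in the pair spread was not tested.

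Of 66 other genes of the pathway, 61 had a probe set and 47 were tested. In limma with the block, 0 rose and 2 fell, with 13 (27.7%) at an unadjusted p under 0.05 against 32.5% of all tested genes, and the 2 calls (4.26%) compare with the 9.9% of all tested genes. The median log2 difference was -0.02. The 7 interferon ligand genes read (IFNB1, IFNA1, IFNE, IFNK, IFNG, IFNL1 and IFNL2) lay between 1.97 and 2.60 in every array, at background in both groups, and were not tested.

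Both falls were receptor subunits. IFNAR2, the subunit of the type I interferon receptor that docks STAT2, read 7.13, 7.60 and 7.27 in control arrays and 6.07, 6.59 and 6.38 in siGNE arrays. The groups did not overlap, and the pairs fell by similar amounts (-1.06, -1.01 and -0.88). The difference was -0.98 (SE 0.09, limma adjusted p 0.0237), which left 50.6% of the control level on this probe set. A second IFNAR2 probe set (mean 6.79) also fell (-0.73, limma adjusted p 0.0438). The brightest IFNAR2 set (mean 9.58), prone to cross-hybridisation, gave -0.16 and did not pass (limma adjusted p 0.261). The size of the fall therefore depends on the probe set. IFNLR1, the specific subunit of the type III receptor of epithelial cells, read 6.52, 6.71 and 5.68 in control and 5.32, 5.77 and 5.15 in siGNE arrays. The groups overlapped only through the low control array 3, and the difference was -0.89 (SE 0.15, limma adjusted p 0.0381). The other IFNLR1 probe set lay near background (0.13). Without the block neither passed (limma adjusted p 0.119 and 0.273). The partner subunits IFNAR1 and IL10RB differed by -0.13 and 0.23 and did not pass. The kinases that the receptors activate did not pass either, with JAK1 at 0.27 (limma adjusted p 0.137), JAK2 at 0.55 (0.108) and TYK2 at -0.11 (0.560). Of the 9 receptors and kinases, 2 (22.2%) passed and 5 (55.6%) had an unadjusted limma p under 0.05. Over all tested genes these shares were 9.9% and 32.5%. Besides IFNAR2 and IFNLR1, the 5 held JAK2, JAK1 and IL10RB, each higher in all 3 pairs. Values did not overlap in 2 of the 9, JAK2 above and IFNAR2 below, against 23.3% of all tested genes. Of 4 tested inhibitors and other IRFs, 0 passed in limma. An unadjusted p under 0.05 was reached by 2 (50%), against 32.5% of all tested genes. These were PTPN2, a phosphatase that dampens JAK signalling, at 0.23 and PIAS1 at -0.37.

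The signalling steps between sensors and interferon gave 0 calls. All 13 adaptors and kinases of the sensors were tested in limma, and 2 of them (15.4%) had an unadjusted p under 0.05. Over all tested genes, 9.9% passed and 32.5% had an unadjusted p under 0.05. The 2 were TRAF3 at -0.49 and IKBKE at -0.23. Values did not overlap in 3 of the 13, TRAF3 and IKBKE below and TBK1 above, against 23.3% of all tested genes. A second tested probe set of TRAF3 and of IKBKE went the other way, at 0.26 and 0.18. MAVS differed by 0.16, TBK1 by 0.19, TICAM1 by 0.11 and STING1 by -0.34. The widest interval was that of CGAS, the cytosolic DNA sensor, at -1.03 (95% interval -2.16 to 0.10), with pairs far apart and another probe set at 0.02. PKR (EIF2AK2), the kinase that halts translation on sensing double-stranded RNA, differed by 0.14, and the RNA-editing enzyme ADAR by -0.14. Of 15 further interferon-stimulated genes tested, 0 passed and 3 (20%) had an unadjusted p under 0.05 in limma. They were SAMD9 at 0.38 (limma adjusted p 0.116), TRIM5 at -0.39 (limma adjusted p 0.0884) and SAMD9L. SAMD9L read 3.99, 4.03 and 3.08 in control arrays, close to background, and 5.09, 4.43 and 4.70 in siGNE arrays. Its mean was above 4 only through the siGNE group, and so was that of RTP4 (3.84 in control, 4.20 in siGNE). Both are in the counts of tested pathway genes, and SAMD9L is in those of an unadjusted p under 0.05. The SAMD9L difference of 1.03 is therefore not taken as a result. BST2, CMPK2 and CXCL10, which interferon strongly induces in many cells, lay between 2.36 and 2.79 in all arrays. Genes of this paragraph were chosen with their values in view.

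**Figure D3:**
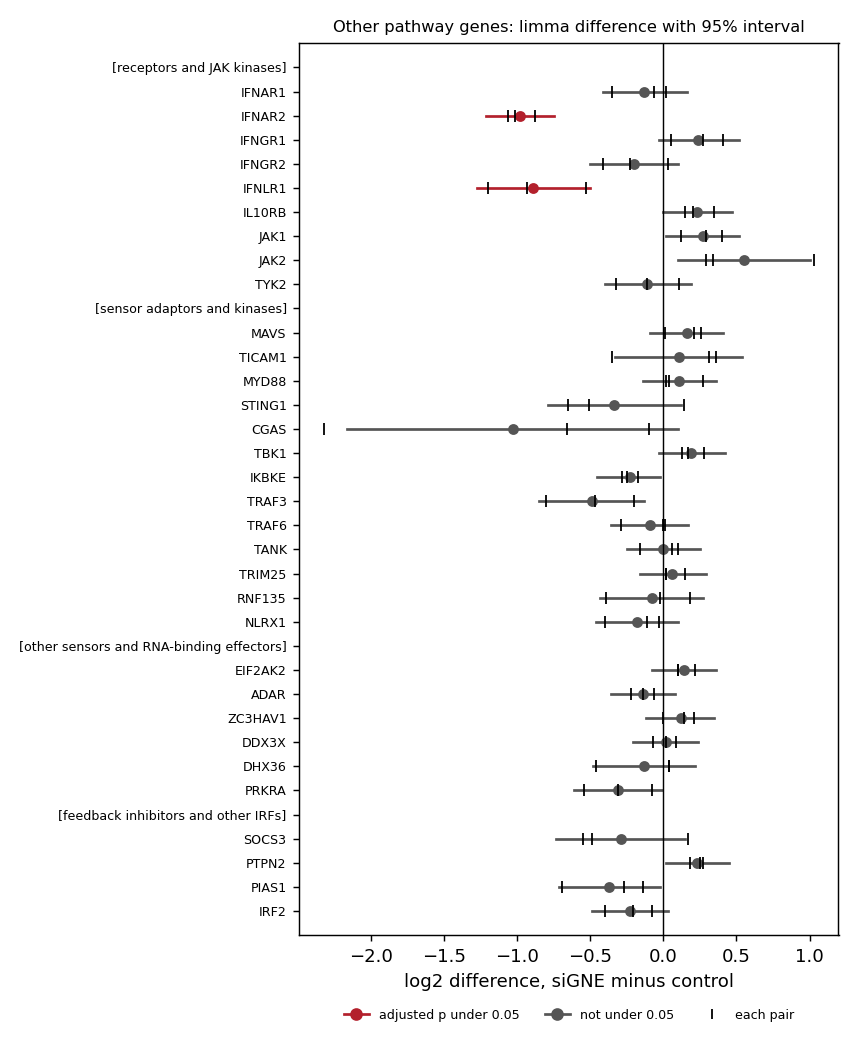
Log2 difference, siGNE minus control, for the tested receptors, kinases, adaptors, other sensors and inhibitors of the pathway. Points are limma estimates with unadjusted 95% intervals and ticks are the 3 pairs. IFNAR2 and IFNLR1, in red near -0.98 and -0.89, are the only genes shown with an adjusted p under 0.05, and CGAS has the widest interval.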

How the data were processed

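RNA from 6 Affymetrix arrays was measured, 3 siGNE and 3 control, made from 300 ng of total RNA per the labels' protocols. The deposited values are log2 expression for 54675 probe sets, which the authors made with GCRMA per the submitters' processing notes. The scale was inferred from the numbers (0.612 to 16.34, array medians 2.96 to 3.02), and for GCRMA's version and chip definition, they are not given in the sources used. GCRMA models background, so differences that start near 3 can be understated or lost. Arrays have no read depth, and their number limits the precision.

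Gene names came from the platform annotation and were updated by gene identifier in a RefSeq table of GRCh38.p14. Of these, 41097 had 1 gene, 1801 several and 11777 none, and probe sets with several named no gene. One probe set per gene was used, that with the highest mean over the 6 arrays, and those marked _x_at only where a gene had no other. The test was limma 3.58.1 in R 4.3.3 (lmFit and eBayes, pair number as a block, 2 residual degrees of freedom) on the 22085 probe sets with a mean above 4, without the 62 control probe sets. The pairing comes from the title numbers. Same-number deviations correlated at 0.58, 0.71 and 0.83 and different-number ones at -0.64 to 0.17, against a limit of 0.1. The script was tested on simulated data with known changes of 1 and 2 log2 units. It recovered 95% and 100% of them, with 14 false calls. Smaller changes, such as those of the tested members (-0.94 to 0.71), were not tried. Intervals are 95% from the moderated statistic, unadjusted.

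Members, lists and tests were chosen with earlier results of these data known. Values in every array were given for members that passed and, up to 14 in all, those with the next smallest unadjusted p, and for other pathway genes that passed; RIGI and TLR3 were added as sensors of transfected RNA. Alternatives changed the block (none), the filter (none, or a mean above 6), the floor (values under 4 set to 4), the scaling (quantile, or arrays centred on the median), the variances (trended, robust, or with array weights), the probe sets (averaged per gene), the threshold (0.1) and the pairs (each left out).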

Additional observations from a re-analysis of the deposited data

How the results depend on the processing

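The fit without the replicate block gave 0 members higher, 0 lower, 0 other pathway genes lower and 9 probe sets in all, with 7 members at an unadjusted p under 0.05, and GNE at -1.88 (limma adjusted p 0.131). Without the filter on the mean, all these counts were 0 (members at an unadjusted p under 0.05: 15), with GNE at -1.88 (limma adjusted p 0.265). Leaving out a pair, control and siGNE together, left 1 residual degree of freedom and 0 to 0 calls for members, other pathway genes and all probe sets, whichever number was left out, with 11 to 15 members at an unadjusted p under 0.05 and GNE between -2.17 and -1.45 (limma adjusted p 0.0665 to 0.144). Leaving out 1 array of the blocked fit is the same as leaving out its pair. Members lower, 2 as reported, were 6 with a mean above 6, 5 with trended variances, 4 with array weights, 6 with averaged probe sets and 6 at an adjusted p under 0.1, where IFIT1 and IFITM1 were among those added each time. In the settings other than no block, no filter and a pair left out, members higher stayed within 1.5 times of 5, and all 7 called members were kept except IRF9 with robust variances and IFIH1 with averaged probe sets (0.22), 2 of its 3 being at background. OAS3 was -0.48 with averaged probe sets. Other pathway genes higher, 0 as reported, were 1 with median centring, trended variances, averaged probe sets and an adjusted p under 0.1. At an adjusted p under 0.1 that gene was SAMD9L, whose mean was above 4 only through the siGNE group. Other pathway genes lower were 1 with a mean above 6, 1 with averaged probe sets and 4 at an adjusted p under 0.1. With a mean above 6 and with averaged probe sets, IFNLR1 fell under the filter and was not tested. Called probe sets, 2095 as reported, were 3318 with a mean above 6, 3146 with trended variances and 4823 at an adjusted p under 0.1. The members' median, -0.02, was 0.02 without the filter, 0.07 with a mean above 6, 0.01 with quantile normalization, 0.02 with median centring, 0.01 with averaged probe sets and -0.06 to 0.01 with a pair left out, so its sign is not fixed. The causes of these shifts were not tested. None of the 16 genes given by array under the naming rule changed sign in any setting that tested it. Falls and small rises of members below 4 cannot be measured on these arrays.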
